A study of Mus musculus with 9 samples.

Results

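The shores of unmethylated CpG islands were followed in embryos made by nuclear transfer and in the fibroblasts whose nuclei they received. The genome was read in tiles of 100 bp, and the methylation level of a tile was the share of its calls that were methylated. A tile was a shore tile where it lay on an autosome, had a CpG density under 4 and started 100 to 2000 bp from a dense tile that was unmethylated in fibroblasts. CpG density is the authors' own value: CpGs are counted in the 50 bp to each side of a CpG, and the counts are averaged over a tile. A dense tile had a density of 8 or more, and it counted as unmethylated at a mean fibroblast level under 20%. With at least 10 calls required in each of the 8 samples, 9365 of 279699 tested tiles were shore tiles. The other sets were 54150 unmethylated dense tiles and 110682 distant sparse tiles, which have a density under 4 and lie more than 2000 bp from every unmethylated dense tile. The shore tiles were 29.7% of the 31516 sparse tiles at that distance with any call. The rest of those candidates fell below the call minimum. The members were thus chosen by the fibroblast level of the neighbouring dense tile, and the level of the shore tile itself was not used.

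The assay was reduced representation bisulfite sequencing (RRBS): DNA is cut with MspI and size-selected, and bisulfite turns unmethylated cytosine into a base read as thymine. The NT embryos, labelled NTZy14, were made by placing a fibroblast nucleus in an enucleated C57/B6 oocyte, and they were activated with SrCl2 after their polar body had been biopsied. The fibroblasts, labelled TT, were grown from tail tips of adult male mice. Each stage held 2 samples of the strain label BDF1-CAST (numbers 1 and 2) and 2 of the strain label X1 (numbers 3 and 4). What the digits in NTZy14 and the name X1 stand for is not given in the sources used here, nor is the number of embryos or animals behind a sample. The p-values below thus set the stages against a spread between samples that may be technical only. NT embryo samples held 25239364 to 30396273 calls and fibroblast samples 35442175 to 80142240. The median shore tile had 39 to 47 calls in NT embryo samples and 53 to 133 in fibroblast samples. Among the 2359 shore tiles between 10 and 90% in both stages, the spread between samples had a median SD of 19.8 points in NT embryos and 8.46 points in fibroblasts, so single NT embryo tiles are the less precise values. Strain cannot be told apart from other differences between the libraries, since the X1 samples also covered fewer CpGs.

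CpG islands are stretches of dense CpGs, many of them at gene promoters, that stay free of methylation in most cell types. The sequence at their edges, the shores, is where methylation climbs to the level of the surrounding genome, and the position of that climb is known to vary between tissues and in cancer. After fertilization, the egg removes much of the methylation that the sperm genome brings in.

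The sequences of 4 promoters show what lies inside these islands and what the shore tiles discussed further on flank. They are RefSeq promoter sequences of 300 bases from the GRCm38.p6 tables, written 5′ to 3′ in the direction of the gene. They were placed on the files' coordinates (mm9) by matching the spacing of their CpGs to the CpG positions that carried calls. Capitals mark CpGs with at least 10 calls summed over the 8 samples. Peli3 encodes an E3 ubiquitin ligase of the Pellino family, Slc38a2 a neutral amino acid transporter and Aqp11 an aquaporin.
Peli3: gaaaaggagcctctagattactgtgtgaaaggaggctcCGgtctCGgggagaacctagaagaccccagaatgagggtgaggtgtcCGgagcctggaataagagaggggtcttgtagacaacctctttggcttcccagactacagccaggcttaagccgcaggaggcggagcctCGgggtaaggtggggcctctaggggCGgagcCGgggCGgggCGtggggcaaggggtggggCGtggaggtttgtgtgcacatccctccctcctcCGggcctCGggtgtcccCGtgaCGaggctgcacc
Slc38a2: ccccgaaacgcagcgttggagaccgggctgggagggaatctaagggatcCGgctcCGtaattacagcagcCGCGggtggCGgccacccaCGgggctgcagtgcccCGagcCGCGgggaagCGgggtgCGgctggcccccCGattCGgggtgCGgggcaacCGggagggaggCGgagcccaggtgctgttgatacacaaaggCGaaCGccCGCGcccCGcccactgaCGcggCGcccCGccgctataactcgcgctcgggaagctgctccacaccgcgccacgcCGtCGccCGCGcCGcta
N4bp2l1: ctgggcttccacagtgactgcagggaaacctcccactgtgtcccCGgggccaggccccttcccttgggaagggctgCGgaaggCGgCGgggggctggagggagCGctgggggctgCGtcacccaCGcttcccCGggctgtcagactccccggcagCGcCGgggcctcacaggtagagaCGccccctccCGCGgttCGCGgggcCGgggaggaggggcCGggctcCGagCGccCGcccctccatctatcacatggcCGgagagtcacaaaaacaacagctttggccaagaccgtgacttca
Aqp11: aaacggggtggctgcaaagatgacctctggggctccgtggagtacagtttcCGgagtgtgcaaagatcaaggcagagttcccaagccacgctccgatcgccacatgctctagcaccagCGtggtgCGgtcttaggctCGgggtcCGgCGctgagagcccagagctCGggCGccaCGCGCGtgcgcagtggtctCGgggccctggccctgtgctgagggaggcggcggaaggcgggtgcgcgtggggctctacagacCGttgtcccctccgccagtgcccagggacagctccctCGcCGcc
The Peli3 window lies on the minus strand of chromosome 19 at 4943042 to 4943341 and has 15 CpGs. The Slc38a2 window lies on the minus strand of chromosome 15 at 96530109 to 96530408 and has 41 CpGs. The N4bp2l1 window lies on the minus strand of chromosome 5 at 151397050 to 151397349 and has 23 CpGs, and the Aqp11 window on the minus strand of chromosome 7 at 104886707 to 104887006 has 27. Apart from 1 sample at Peli3, all 4 windows were nearly free of methylation in both stages. Over CpGs with at least 10 calls in each sample, the Slc38a2 window averaged 0.721% ± 0.834 in NT embryos and 0.408% ± 0.358 in fibroblasts (SD, n = 4 each, 11 CpGs). The Aqp11 window averaged 0.702% ± 0.814 in NT embryos and 0.658% ± 0.432 in fibroblasts (13 CpGs), and the N4bp2l1 window averaged 0.889% ± 1.41 in NT embryos and 1.33% ± 1.01 in fibroblasts (7 CpGs). In the Peli3 window, 1 NT embryo sample stood apart at 10.9% while the other NT embryo samples were at 0%, against 0 to 2.26% in fibroblast samples (5 CpGs).

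The label held in the data. The unmethylated dense tiles averaged 1.56% ± 0.212 in NT embryos and 1.60% ± 0.293 in fibroblasts (SD, n = 4 each). This near absence in fibroblasts is what the rule chose, so it is a description. The nearest dense tile of a shore tile had a median fibroblast level of 1.08%, and 91.0% of shore tiles had a nearest dense tile under 5%. At the edge of the rule, 424 dense tiles at 15 to 20% in fibroblasts were inside it and 250 at 20 to 25% were outside. Moving away from the dense tile, the shores climbed in both stages. At 100 bp the mean level was 2.56% ± 0.261 in NT embryos and 3.21% ± 0.254 in fibroblasts, and at 2000 bp it was 33.6% ± 5.05 in NT embryos and 46.6% ± 1.497 in fibroblasts. Just outside the limit, 150 sparse tiles at 2100 bp averaged 31.1% in NT embryos and 48.0% in fibroblasts. The profile thus had not reached the level of distant sparse tiles, which was 61.5% ± 4.44 in NT embryos and 71.5% ± 2.37 in fibroblasts.

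Shores were less methylated in NT embryos than in fibroblasts. Over all shore tiles, the mean level was 9.38, 10.4, 13.7 and 11.8% in NT embryo samples 1 to 4, against 17.1, 16.01, 18.3 and 17.5% in fibroblast samples 1 to 4. The stages did not overlap, and the BDF1-CAST embryos were the lowest. The difference was -5.90 points, 11.3% ± 1.88 in NT embryos and 17.2% ± 0.941 in fibroblasts, and it reached the smallest p that 4 samples against 4 allow (two-sided exact permutation test over 70 assignments, p = 0.0286). It was -6.66 points within BDF1-CAST and -5.13 points within X1. The shores lost 34.3% of their fibroblast level, and the distant sparse tiles lost 14.03% of theirs. Without fibroblast sample 3, the exact permutation p was 0.0571 and the difference -5.53 points.

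**Figure D1:**
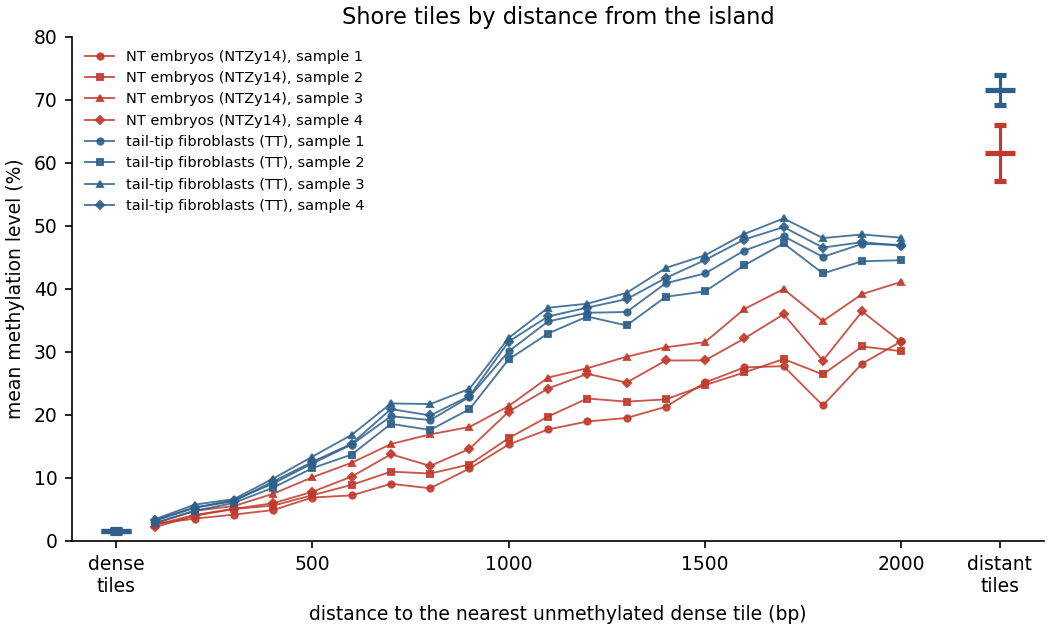
Mean methylation level (%) of shore tiles against the distance in bp to the nearest unmethylated dense tile, 1 line per sample, NT embryos in red and fibroblasts in blue. The dashes at the ends give the mean and SD (n = 4) of the unmethylated dense tiles and the distant sparse tiles. All 8 samples start near 3% at 100 bp, and the stage means reach 33.6% in NT embryos and 46.6% in fibroblasts at 2000 bp. At 200 bp the highest NT embryo sample (4.77%) lies just above the lowest fibroblast sample (4.75%), and at the other distances every NT embryo line runs below every fibroblast line.

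The gap between the stages was wider in each class farther from the island. At 100 to 200 bp (2489 tiles), the NT embryo samples had 3.23, 3.56, 4.08 and 3.36%, against 4.53, 4.09, 4.94 and 4.60% in fibroblasts. At 1100 to 2000 bp (1924 tiles), they had 23.2, 24.8, 32.7 and 29.1%, against 41.5, 39.5, 43.8 and 42.7% in fibroblasts. The stages did not overlap in either class, but next to the island the nearest samples were almost level, whereas far out they were over 6 points apart. The change was -0.981 points at 100 to 200 bp and -2.81 points at 300 to 500 bp (2822 tiles). It was -8.03 points at 600 to 1000 bp (2130 tiles) and -14.4 points at 1100 to 2000 bp. All 4 classes had the smallest possible p of 0.0286, which the Benjamini-Hochberg adjustment over the 4 leaves at 0.0286 (two-sided exact permutation tests). The innermost class was the least stable: leaving out NT embryo sample 1 or 4, or any 1 fibroblast sample, brought its adjusted exact permutation p to between 0.0571 and 0.0857. Leaving out fibroblast sample 1, 3 or 4 brought the other 3 classes to between 0.0571 and 0.0762. The slope in points differed: the outermost class exceeded the innermost by 23.9 points ± 4.04 in NT embryos and by 37.3 points ± 1.51 in fibroblasts, a difference of -13.5 points (exact permutation p = 0.0286, n = 4 each). The innermost class stood at 4.54% in fibroblasts and had little to lose, so this difference follows largely from the outermost class.

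Within the outermost class the gap did not widen steadily: it was -13.2 points at 1100 bp, -17.7 points at 1800 bp and -13.01 points at 2000 bp (153 tiles). Just outside the rule, at 2100 bp, it was -16.9 points (150 tiles). In relative terms the loss varied less. The shores lost 21.6% of their fibroblast level at 100 to 200 bp, 31.5% at 300 to 500 bp, 38.7% at 600 to 1000 bp and 34.5% at 1100 to 2000 bp. By single distance the share lost was 40.1% at 1000 bp and 27.9% at 2000 bp, and it was 35.1% at 2100 bp, outside the rule. Tiles that are methylated at all are rare close to the island. Only 0.723% of the tiles at 100 to 200 bp were at 60% or more in fibroblasts, against 37.1% of those at 1100 to 2000 bp. In NT embryos the tiles at 60% or more made up 0.0804% of the innermost class and 12.6% of the outermost class.

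Shore tiles that were methylated in fibroblasts fell at every distance. A tile was placed by the fibroblasts of the other strain, at 60% or more, so that the values which placed it did not also measure its change. The choice still rests on the fibroblast stage, and no choice by the level in NT embryos was made. In the innermost class, with 19 tiles for one strain and 21 for the other, the NT embryo samples had 32.1, 34.4, 38.6 and 32.4%, against 64.6, 62.7, 66.4 and 66.9% in fibroblasts. In the outermost class, with 686 and 740 tiles, they had 43.7, 45.2, 55.9 and 52.0%, against 77.4, 74.9, 80.4 and 80.5% in fibroblasts. The stages were far apart in both. The change was -30.8 points at 100 to 200 bp and -26.9 points at 300 to 500 bp. Farther out it was -32.0 points at 600 to 1000 bp and -29.1 points at 1100 to 2000 bp (exact permutation p = 0.0286 and Benjamini-Hochberg adjusted p = 0.0286 for each class). No difference in change between the outermost and the innermost class was detected: the outermost exceeded the innermost by 14.9 points ± 4.32 in NT embryos and 13.1 points ± 0.842 in fibroblasts (difference 1.74 points, exact permutation p = 0.457). That difference had opposite signs in the 2 strains and turned negative under several alternatives, so its direction is not given by these data.

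**Figure D2:**
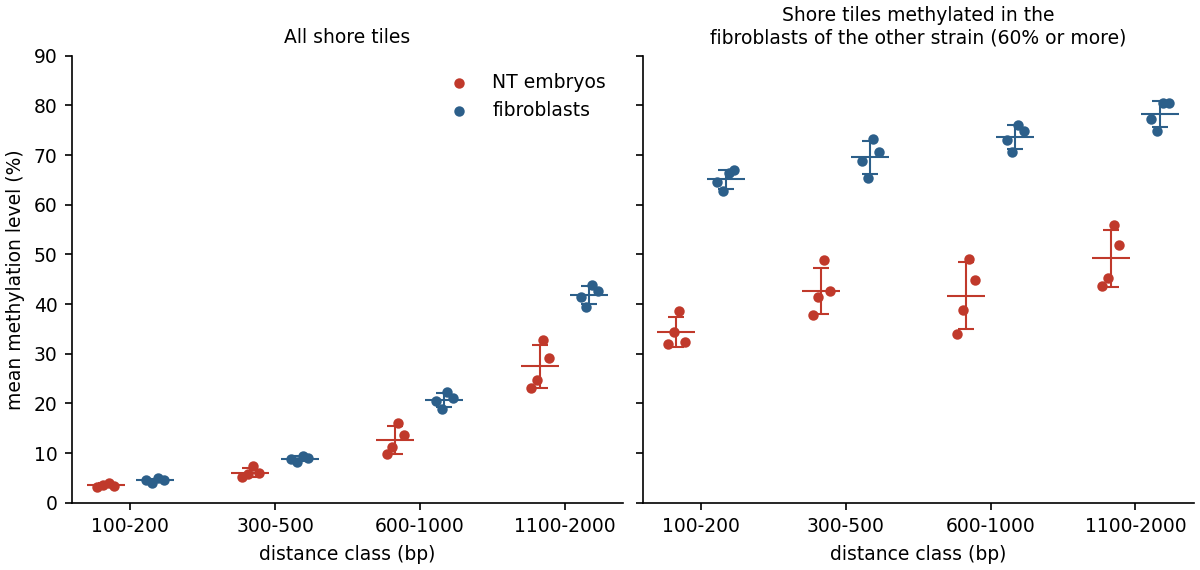
Mean methylation level (%) of shore tiles in 4 distance classes, for all shore tiles on the left and for those at 60% or more in the fibroblasts of the other strain on the right. Points are samples, NT embryos in red left of fibroblasts in blue, with mean and SD (n = 4). Over all tiles the gap widens outward to 27.5% against 41.9%, while the methylated tiles changed by -32.0 to -26.9 points in each class.

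Methylated shores lost more than sparse tiles away from islands that were matched on their fibroblast level. Distant tiles were reweighted to the shore tiles' classes of CpG density and of level in the fibroblasts of the other strain. Among methylated tiles, shore minus matched distant level was -22.2, -19.7, -19.4 and -20.7 points in NT embryo samples, against -2.49, -2.72, -4.09 and -3.64 points in fibroblast samples. The stages did not come near each other on this measure. The difference between the stages was -17.3 points (shore minus distant -20.5 points ± 1.25 in NT embryos and -3.23 points ± 0.759 in fibroblasts, exact permutation p = 0.0286). It was -17.6 to -16.6 points when any 1 sample was left out. This comparison was added after the data had been seen. Here and in the classes of starting level below, tiles were chosen by their level in fibroblasts. No choice by the level in NT embryos was made, so the mirror comparison was not tested. The comparison over all shore tiles, most of which had little to lose, gave -12.6 points ± 4.98 in NT embryos and -6.06 points ± 2.75 in fibroblasts, a difference of -6.54 points that did not pass (exact permutation p = 0.0857).

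By starting level, the gap between shores and distant tiles was wider in the classes with more methylation. Tiles at 80 to 100% in the fibroblasts of the other strain averaged 53.6% ± 6.17 in NT embryos and 84.7% ± 1.89 in fibroblasts when they lay in shores. Distant tiles of that class averaged 72.7% ± 4.07 in NT embryos and 85.1% ± 2.28 in fibroblasts. The shores changed by 18.6 points more (exact permutation test of the difference, p = 0.0286, Benjamini-Hochberg adjusted p = 0.0476 over 5 classes). At 60 to 80% the changes were -28.2 points in shores and -11.4 points in distant tiles, and at 40 to 60% they were -20.7 points in shores and -8.45 points in distant tiles, with the same p. At 20 to 40% the changes were -10.4 points in shores and -0.721 points in distant tiles, which missed the threshold (exact permutation p = 0.0571, adjusted p = 0.0714). At 0 to 20% they were -0.578 points in shores and 3.73 points in distant tiles (exact permutation p = 0.286).

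**Figure D3:**
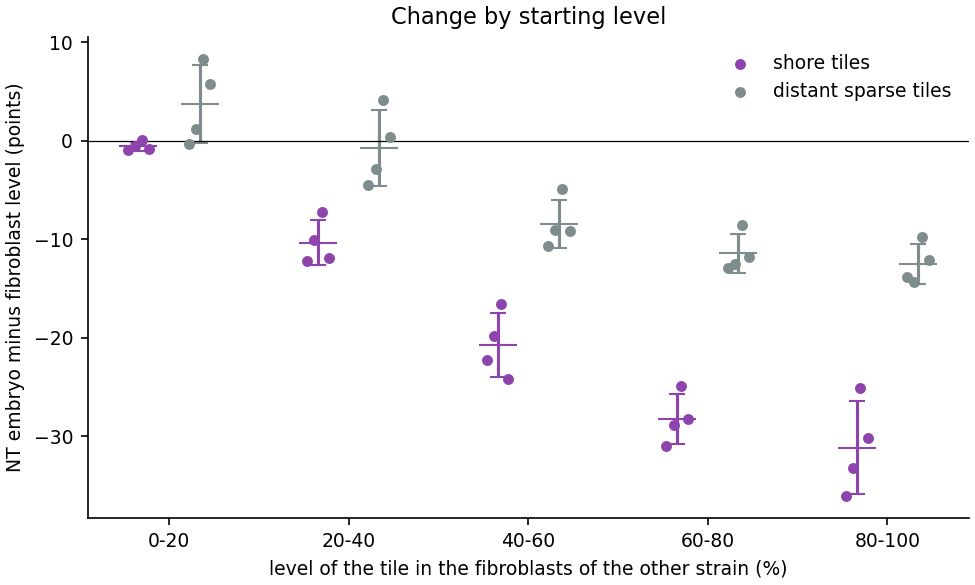
Change from fibroblasts to NT embryos in percentage points (NT embryo level minus the fibroblast mean of the same strain) by the level of the tile in the fibroblasts of the other strain, for shore tiles in purple and distant sparse tiles in grey. Points are the 4 NT embryo samples, with mean and SD. At 80 to 100% the shores changed by -31.1 points and the distant tiles by -12.5 points.

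The loss spread over the whole range of levels. Of shore tiles at 60% or more in the fibroblasts of the other strain, 26.2, 20.4, 16.3 and 22.7% were under 20% in NT embryo samples 1 to 4, against at most 0.452% in any fibroblast sample. A further 42.9% ± 6.02 lay at 20 to 60% in NT embryos, against 13.5% ± 4.03 in fibroblasts. Those still at 80% or more made up 14.97% ± 7.93 in NT embryos and 48.4% ± 6.47 in fibroblasts. Each of these shares differed between the stages with no overlap of samples (exact permutation p = 0.0286, n = 4 each). Of methylated distant tiles, 4.59% ± 1.08 were under 20% in NT embryos and 0.0452% ± 0.0320 in fibroblasts. The shares at 80% or more were 34.7% ± 11.3 in NT embryos and 66.3% ± 8.34 in fibroblasts.

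**Figure D4:**
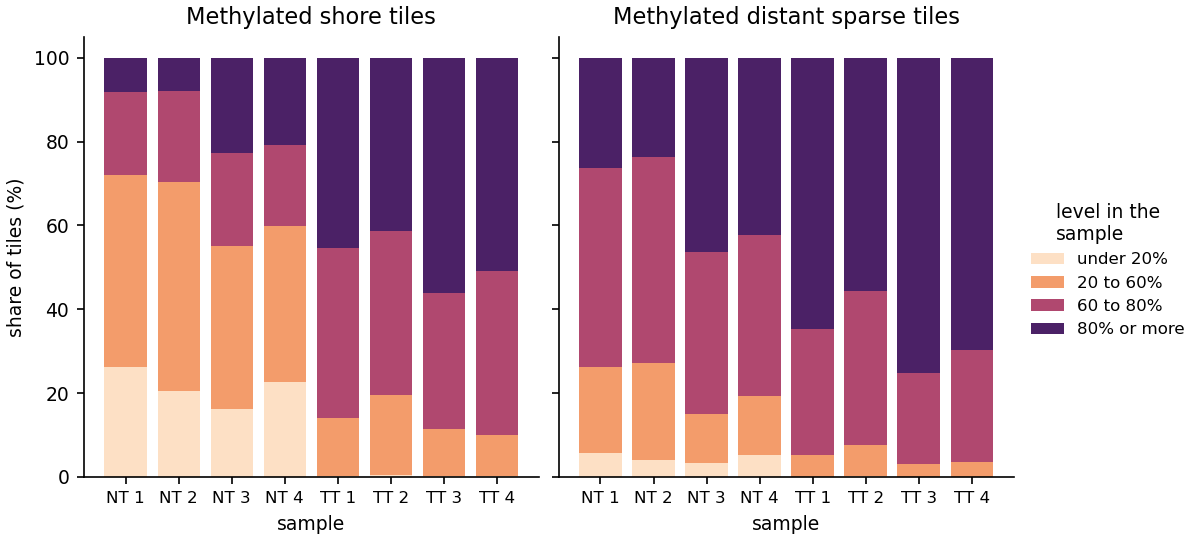
Shares (%) of methylated shore tiles on the left and methylated distant sparse tiles on the right by their level in each sample, with NT embryo samples 1 to 4 left of fibroblast samples 1 to 4. Tiles were at 60% or more in the fibroblasts of the other strain. The share under 20% is 16.3 to 26.2% of methylated shore tiles in NT embryo samples and at most 0.452% in fibroblast samples.

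The mean profile reached its middle level farther from the island in NT embryos. The mid-rise distance is where the mean profile of a sample first reaches the middle between its own dense and distant tiles. It was 1945, 1876, 1548 and 1611 bp in NT embryo samples, against 1301, 1185, 1203 and 1200 bp in fibroblast samples. Each NT embryo sample exceeded each fibroblast sample, and the X1 embryos lay nearer to the fibroblasts. NT embryo samples 1 and 2 were read at 1800 to 2000 bp, where each distance held 152 to 162 tiles. The profile was uneven there: NT embryo sample 1 had 27.7% at 1700 bp and 21.5% at 1800 bp. The mid-rise distance also grows where shores lose a larger share of their level than distant tiles. A shift of the rise apart from that was not tested. The mean was 1745 bp ± 195 in NT embryos and 1222 bp ± 53.0 in fibroblasts, a difference of 523 bp (exact permutation p = 0.0286). The size of this difference depended on the tiles used: it was 284 bp with at least 20 calls per tile and 384 bp for tiles with at least 2 CpGs, both with an exact permutation p of 0.0286.

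Around gene starts the 2 sides of an island differed slightly. Islands were used where all placed RefSeq start sites had 1 strand, which gave 1700 upstream and 1987 downstream shore tiles. At the same distance class, downstream minus upstream level was -1.55 points ± 0.585 in NT embryos and -3.43 points ± 0.263 in fibroblasts. The stages differed by 1.88 points (exact permutation p = 0.0286, n = 4 each), in a comparison added after the data had been seen. A gap in points also shrinks where both sides lose a similar share of their level. Upstream tiles lost 38.3% of their fibroblast level and downstream tiles 35.1%. At 600 to 1000 bp the losses were 41.3% upstream and 42.3% downstream, and in the other distance classes the upstream share was the larger. At 1100 to 2000 bp, upstream tiles were at 29.0% ± 4.41 in NT embryos and 47.0% ± 2.04 in fibroblasts, and downstream tiles were at 26.4% ± 4.63 in NT embryos and 40.5% ± 2.16 in fibroblasts.

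The decrease was seen on all 19 autosomes and in each class of CpG density. The change ran from -7.44 points on chromosome 15 to -3.54 points on chromosome 14. Tiles of density 1 changed by -9.32 points, those of density 2 by -6.66 and those of density 3 by -4.51. Relative to the fibroblast level the 3 densities were alike, with losses of 34.8, 33.0 and 35.3%. Sparse tiles of density 4, just outside the rule, changed by -2.58 points. Tiles with 1 CpG changed by -6.91 points and tiles with 2 or more CpGs by -5.50 points.

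Tile by tile, 466 shore tiles were called lower and 7 higher in NT embryos. The call asked for a difference of 20 points or more together with an adjusted p under 0.05 (quasi-binomial model with limma-moderated dispersion and strain as a covariate, Benjamini-Hochberg adjustment over all 279699 tiles). This is 4.98% of shore tiles called lower and 0.0747% called higher. Among all tested tiles 3.95% were called lower and 0.143% higher, and among distant sparse tiles 5.11% lower and 0.241% higher. The share over all shore tiles was thus near the background and no higher than that of distant sparse tiles. Among tiles at 60% or more in fibroblasts, 297 of 1058 shore tiles were called lower, or 28.1%, against 5.74% of distant sparse tiles and 6.35% of all tested tiles. In that class 0 shore tiles were called higher, against 0.0317% of all tested tiles. At 20 to 60% the shares called lower were 12.3% of shore tiles and 4.1% of distant tiles. The fibroblast level places a tile in these classes and also enters its change, so the shares are descriptions. Depth differed as well, and a call is easier to reach with more calls per tile. The median distant sparse tile had 28 to 38 calls in NT embryo samples and 31 to 81 in fibroblast samples. This was fewer than the median shore tile in every sample. Tiles called lower were more frequent farther out: 21 at 100 to 200 bp (0.844% of that class) and 55 at 300 to 500 bp (1.95%). There were 144 at 600 to 1000 bp (6.76%) and 246 at 1100 to 2000 bp (12.8%). Tiles with enough methylation to fall by 20 points were also more frequent farther out. Of the innermost class, 94.6% of tiles were under 20% in fibroblasts and could not be called lower, against 37.7% of the outermost. The count of 466 rested on single samples: leaving out fibroblast sample 1 or 2 brought it to 0, leaving out fibroblast sample 3 to 86 and leaving out fibroblast sample 4 to 102. It was 239 when NT embryo sample 1 was left out and 275 when NT embryo sample 2 was. Calls over all tested tiles, in either direction, fell as well, so this was not particular to shores. They numbered 11461 with all samples and 0 without fibroblast sample 1 or 2. Without fibroblast sample 3 they numbered 1597, and without fibroblast sample 4 they numbered 1983. Before adjustment, 2579 of 9365 shore tiles had a p under 0.05 in this model with all samples. It was 1907 of 9370 without fibroblast sample 1 and 2209 of 9376 without fibroblast sample 2. The same count over all tested tiles is not given here, so these numbers do not set shores apart.

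The tiles called lower had mostly been methylated and ended well below. Their median level was 21.5% in NT embryos and 69.7% in fibroblasts, and the median change was -40.1 points. Of the 466, 222 were under 20% in NT embryos, and 64 were under 20% in NT embryos and at 60% or more in fibroblasts. They belonged to 416 separate island regions, formed by joining unmethylated dense tiles within 1000 bp. Their nearest dense tiles averaged 2.25% in NT embryos and 2.88% in fibroblasts, and all 466 of these stayed under 20% in NT embryos. All 4 same-numbered pairs were lower in 451 of them.

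The largest falls were near-complete losses at single tiles. Genes are named where a placed RefSeq start site lies within 3000 bp, counted from the centre of the tile. The largest lay on chromosome 19 at 4941600 to 4941699, 1441 bp downstream of the Peli3 start site and 1400 bp from its island. Its single CpG was at 13.6, 5.88, 0 and 0% in NT embryo samples, against 92.1, 89.0, 93.9 and 94.6% in fibroblast samples. Every fibroblast sample was almost fully methylated and every NT embryo sample nearly empty, on 12 to 165 calls per sample. The change was -87.6 points (adjusted p = 0.00632, quasi-binomial model with limma-moderated dispersion).

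The tile on chromosome 15 at 96531400 to 96531499, upstream of the Slc38a2 start site (at -1292 bp), held 0 methylated calls in all 4 NT embryo samples. Its levels were 74.2, 85.7, 91.8 and 75.0% in fibroblast samples 1 to 4, and the change was -81.7 points (adjusted p = 0.00632, quasi-binomial model). The NT embryo samples gave 12, 44, 42 and 23 calls, so a low level would not be detectable in the smallest of them. Downstream of Eif3l, which encodes a subunit of translation initiation factor eIF3, the tile on chromosome 15 at 78906900 to 78906999 was at 0, 0, 0 and 6.25% in NT embryo samples, against 68.8, 83.3, 100 and 91.7% in fibroblast samples. The stages did not overlap, although NT embryo sample 4 was the only embryo sample with any methylated call. Its change was -84.4 points (adjusted p = 0.00686, quasi-binomial model).

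The other 5 of the 8 largest falls had no placed start site within 3000 bp. On chromosome 15 at 99557600 to 99557699 the level was 8.04% ± 10.1 in NT embryos and 94.7% ± 7.09 in fibroblasts, and on chromosome 6 at 87862300 to 87862399 it was 11.0% ± 12.8 in NT embryos and 88.9% ± 0.794 in fibroblasts (SD, n = 4 each). On chromosome 8 at 28133100 to 28133199 it was 8.03% ± 11.1 in NT embryos and 83.3% ± 10.9 in fibroblasts. In these 3 tiles every embryo sample lay below every fibroblast sample. In the remaining pair 1 NT embryo sample stood apart from the others at 0%: sample 2 at 38.2% on chromosome 5 at 143689400 to 143689499, and sample 4 at 73.5% on chromosome 8 at 73119700 to 73119799. The tile on chromosome 8 lost its call in 7 of the 8 fits with 1 sample left out, the tile on chromosome 5 in 4 and the other 6 falls in 2 each. Fibroblast samples were at 85.3 to 97.0% in the tile on chromosome 5 and at 90.9 to 99.1% in the tile on chromosome 8.

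Rises were few and less uniform. The largest was on chromosome 4 at 134953300 to 134953399, 700 bp from its island, at 84.8, 89.5, 93.8 and 100% in NT embryo samples, against 48.3, 19.4, 61.1 and 32.0% in fibroblast samples. The fibroblast samples were spread widely below the embryos. The change was 51.8 points (adjusted p = 0.0331, quasi-binomial model). Near Shisa7, which encodes an auxiliary protein of GABA receptors, the tile on chromosome 7 at 4796600 to 4796699 was at 41.6, 31.4, 47.1 and 56.5% in NT embryo samples, against 15.7, 20.5, 35.0 and 19.3% in fibroblast samples. The lowest embryo sample lay below the highest fibroblast sample (change 21.5 points, adjusted p = 0.0305, quasi-binomial model). The other 4 rises were at 22.1 to 61.8% in NT embryos and 1.48 to 21.0% in fibroblasts, and in 3 of them the X1 embryos were the highest samples. Leaving out 1 sample brought the adjusted p of each of the 6 rises above the threshold in at least 5 of 8 cases.

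The island with the most called shore tiles was that of N4bp2l1, on chromosome 5 at 151396200 to 151397299. Its 9 shore tiles averaged 14.5, 8.18, 3.09 and 6.31% in NT embryo samples, against 37.0, 36.9, 29.3 and 32.7% in fibroblast samples. Each embryo sample lay more than 14 points below each fibroblast sample. The methylated tiles lay at both ends. Downstream, 1649 to 2049 bp past the start site, the 4 called tiles averaged 12.5, 14.3, 0 and 5.36% in NT embryo samples, against 59.0, 63.5, 45.5 and 54.2% in fibroblast samples. Upstream, the tile at -1151 bp from the start site was at 29.8% ± 25.8 in NT embryos and 58.5% ± 6.18 in fibroblasts and was not called (adjusted p = 0.0882, quasi-binomial model). In between, the 7 dense tiles averaged 0.738% ± 0.872 in NT embryos and 1.29% ± 0.589 in fibroblasts, and the promoter printed above lies in that stretch. With a minimum of 20 calls, which leaves out 3 of the 4 called tiles, the mean change of this shore was -7.68 points instead of -25.9.

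**Figure D5:**
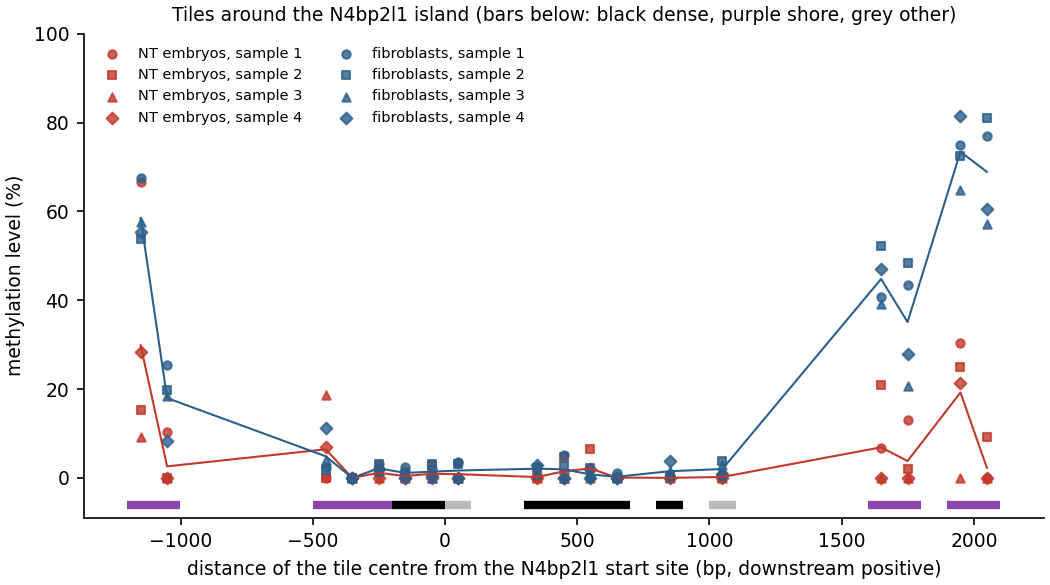
Methylation level (%) of each tested tile around the N4bp2l1 island against the distance of the tile centre from the start site in bp, downstream positive, with NT embryo samples in red and fibroblast samples in blue. Lines are stage means, and bars below mark dense tiles in black, shore tiles in purple and other tiles in grey. From 1649 bp downstream the fibroblast samples lie above the NT embryo samples, while the dense tiles of both stages lie near 1%.

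Other shores changed over several tiles as well. At the island of D17H6S53E on chromosome 17 (35263100 to 35263299), all 3 shore tiles were called, at 19.6% ± 7.07 in NT embryos and 64.2% ± 5.20 in fibroblasts (SD, n = 4 each). By contrast, the island on chromosome 5 at 121144500 to 121144599 had 8 shore tiles of which 1 was called, at 48.4% ± 10.4 in NT embryos and 67.3% ± 3.64 in fibroblasts. The other named regions, on chromosome 6 at 47618300 to 47618499 and at 47698800 to 47698999, belong to a repeated stretch. They averaged 28.6% ± 5.11 and 30.6% ± 8.25 in NT embryos, against 60.6% ± 6.23 and 62.4% ± 3.65 in fibroblasts, and 20 of the 54 CpGs around the first recur at the same spacing around the second. Within 150000 bp of the point midway between them, 32 of 34 shore tiles were called lower, and 18 of the 34 have a CpG spacing that recurs elsewhere. Outside that stretch, 15 of 433 shore tiles on chromosome 6 were called lower, or 3.46%. How reads from repeated copies were assigned is not given in the sources used here. Without all tiles of recurring spacing, 448 shore tiles were called lower.

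Shores were also counted by island region. Of 873 island regions with 3 or more shore tiles, 301 were lower in all 4 same-numbered pairs and 16 were higher in all 4. Among the 300 of these at 20% or more in fibroblasts, 176 were lower in all pairs, 0 were higher, and the median change was -13.8 points. Single tiles were lower in all 4 pairs in 20.01% of shore tiles, against 22.6% of all tested tiles. Of 96 regions at 20% or more in fibroblasts on both sides, 80 were lower on both sides and 14 on 1 side. The fibroblast level that selects these regions also enters their change, and no distant regions were selected in the same way, so these counts are descriptions.

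Among the 466 shore tiles called lower, 229 lay within 3000 bp of a placed start site, against 4530 of all 9365 shore tiles. Tiles called lower lay that near to 208 genes, and 18 of these genes had 2 or more of them. Since these 18 were picked by their values, their levels are descriptions. The 2 called tiles upstream of Aqp11 averaged 27.5, 29.7, 12.7 and 16.7% in NT embryo samples, against 85.6, 87.0, 89.6 and 85.5% in fibroblast samples, with the embryos far below throughout. Near Rasl11a, which encodes a Ras-like GTPase, the mean was 32.0% ± 11.5 in NT embryos and 91.9% ± 5.49 in fibroblasts. Near Castor1, an arginine sensor of the mTORC1 pathway, it was 28.7% ± 13.6 in NT embryos and 84.5% ± 6.05 in fibroblasts. Near Rasgrp2, an exchange factor for the GTPase Rap, it was 18.6% ± 7.37 in NT embryos and 72.3% ± 1.59 in fibroblasts. These 4 had the largest falls among the 18 genes, and in each of them every embryo sample was below every fibroblast sample.

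The remaining genes of that group cover many functions. They include Uck1, a uridine-cytidine kinase, at 50.8% ± 12.9 in NT embryos and 92.4% ± 2.78 in fibroblasts, and Stub1, a ubiquitin ligase that works with chaperones, at 28.0% ± 3.97 in NT embryos and 63.4% ± 3.89 in fibroblasts. Pofut2, a protein O-fucosyltransferase, was at 27.9% ± 9.90 in NT embryos and 67.1% ± 8.25 in fibroblasts, and Frs3, an adaptor of the FGF receptor, at 41.2% ± 15.95 in NT embryos and 87.6% ± 1.52 in fibroblasts. Tcf7, a transcription factor of the Wnt pathway and of T cells, was the least uniform: its 2 tiles were at 33.0, 36.0, 83.3 and 55.6% in NT embryo samples, against 83.5, 85.2, 92.1 and 92.0% in fibroblast samples. NT embryo sample 3 was nearly as high as the lowest fibroblast sample there.

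Among named lists, little could be read. Of 12 pluripotency genes, 3 had a placed start site and Klf4 alone had shore tiles, 5 of them, none called by the quasi-binomial model. The Klf4 tile with the most methylation was at 0, 3.03, 0 and 5% in NT embryo samples, against 20, 23.1, 12 and 11.9% in fibroblast samples. The embryo samples lay below the fibroblast samples in that tile, 2696 bp from the start site. The median change of the 5 tiles was -1.0 points, against -1.22 over all shore tiles. Of 12 fibroblast genes, 1 had a placed start site and 0 had a shore tile.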

How the data were processed

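RRBS libraries of 9 mouse samples were used. Per the deposited description of the files, each lists CpG positions with the counts of calls seen and methylated; the submitters' processing notes name mm9. No source used here gives the aligner or the methylation caller. The authors' deposited 100 bp tile table gives methylation as a fraction and CpG density as a score. Its density was used, and 7 of its fraction columns served as a check, with at least 99.4% of tiles within 0.001 of values recomputed from CpGs with at least 5 calls. A further 20 per-sample columns were not used. The deposited description marks "a" as a resequencing, so libraries 1 and 1a of the fibroblasts were summed, giving 8 samples. Over shore tiles their levels correlated at r = 0.956, against 0.951 for libraries 1 and 2.

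Calls were summed per tile, and tiles with at least 10 calls in each sample were kept. Sample means weight each tile equally and were compared by two-sided exact permutation tests over 70 assignments. Tiles were fitted with a quasi-binomial logistic model (stage and strain), with a dispersion of 1 or more that squeezeVar moderated (R 4.3.3, limma 3.58.1). An F test and Benjamini-Hochberg adjustment over 279699 tiles followed. The model was also run on simulated data with the same extra spread in both stages. That run cannot show how the calls behave where NT embryo samples spread more than fibroblast samples, as they did here. Pandas 2.3.3, scipy 1.17.1 and numpy 2.4.6 under Python 3.11.15 served for the rest. No source used here mentions molecular identifiers, so a call is not a molecule.

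No annotation of the files' build was used. RefSeq promoter sequences (GRCm38.p6) were placed by CpG spacing instead, a step added after seeing the files. Every CpG with calls in the window had to match, at least 8 of them and at least 4 more than at any other such place. Of 15382 autosomal promoters with at least 8 CpGs, 8237 were placed, and 8230 of these (99.9%) had the same offset, within 1000 bp, as a neighbouring gene. They name 7319 genes. Whether file positions start at 0 or 1 is not given in the sources used here, so positions may be off by 1 base.

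Named tiles were the 8 largest falls and 6 largest rises among called shore tiles whose 4 same-numbered pairs moved the same way, then the 4 regions with the most called and the 2 with the most tested shore tiles. A repeat of N4bp2l1 between these lists was counted once. The gene lists held 12 pluripotency and 12 fibroblast genes. Members, lists and tests were chosen with earlier results of these data known. Alternatives changed the call minimum, the treatment of library 1a, the choice of dense tiles, distance, density, weighting, model, covariate, minimum difference, pairing and left-out samples.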

Additional observations from a re-analysis of the deposited data

Results flagged for a closer look

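The change in the difference between the outermost and the innermost class of methylated shore tiles had opposite signs in the strains, and differed by -5.91 points: -1.21 in BDF1-CAST and 4.70 in X1. Both X1 embryo samples lay above every fibroblast sample and both BDF1-CAST embryo samples below. This difference between the strains was not tested.

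In 4 of 68 groups of 4 samples, 1 sample stood apart from the other 3 by more than 0.83 of the range. Chance alone flags about 1 group in 20, or 3.4 of 68. Fibroblast sample 1, the deepest and the sum of 2 libraries, had a mid-rise distance of 1301 bp, against 1185 to 1203 bp in the other fibroblast samples. On chromosome 15, the tile at 78906900 had 6.25% in NT embryo sample 4 and 0% in the others. On chromosome 5, the tile at 143689400 had 38.2% in NT embryo sample 2 and 0% in the others. On chromosome 8, the tile at 73119700 had 73.5% in NT embryo sample 4 and 0% in the others, and that tile was no longer called under limma (adjusted p = 0.0551) or without library 1a (adjusted p = 0.0505, quasi-binomial model). It also lost its call in 7 of 8 fits with 1 sample left out, with an adjusted p of up to 0.178, and kept it without NT embryo sample 4 (adjusted p = 0.0116).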

How the results depend on the processing

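Results kept their direction under every alternative except the outermost minus innermost difference of methylated tiles (1.74 points). It was -2.65 points with at least 5 calls, -0.250 with dense tiles under 10%, -2.04 with dense tiles chosen on the other strain and -0.140 for tiles at 80% or more, and it ranged from -2.45 to 1.69 points with 1 sample left out, in no case past the threshold. The change at 100 to 200 bp missed the threshold (exact permutation p = 0.0571 to 0.0857) without library 1a (-0.868 points), with dense tiles under 10% (-0.696) or chosen on the other strain (-0.876), with CpG density under 3 (-1.21), with CpGs weighted equally (-0.864) and without recurring CpG spacing (-0.834). The mid-rise difference was 284 to 585 bp over the other settings of the tiles, lowest with at least 20 calls. Its alternative at a fixed level of 40% gave no value, since not every NT embryo profile reaches that level. The difference between shores and matched distant tiles over all levels passed from 300 bp (-7.46 points) and with tiles weighted by calls (-5.07, exact permutation p = 0.0286 for both).

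With 1 sample left out, changes ranged from -7.12 to -5.53 points over all shores, and in the 4 classes from -1.16 to -0.847, from -3.50 to -2.56, from -9.63 to -7.47 and from -16.96 to -13.8 points, with exact permutation p from 0.0286 to 0.0857. Leaving out fibroblast sample 1, 3 or 4 brought the adjusted exact permutation p of each class mean from 300 bp outward above the threshold. Methylated tiles, the mid-rise distance (503 to 718 bp) and the slope (-15.8 to -12.9 points) kept p = 0.0286 in each exact permutation test. Calls ranged from 0 to 551 lower and 0 to 8 higher. Regions lower in all pairs numbered 340 to 489, by construction more, since 3 pairs remain.

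Shore tiles called lower numbered 732 of 12477 with 5 calls, 201 of 5487 with 20 calls and 272 of 4489 with density under 3. With all settings as reported they numbered 466 of 9365. Calls over all tested tiles, in either direction, numbered 17961 of 352692 with 5 calls and 5117 of 180195 with 20 calls. Those called higher numbered 4 with 20 calls, 4 with density under 3, 17 at 10 points, 33 with no minimum, 3 without the covariate and 3 with limma. Regions lower in all pairs numbered 552 with 5 calls, 103 with 20 calls, 74 with density under 3 and 144 with at least 2 CpGs per tile. How many regions had enough shore tiles in each of these settings is not given here, so these counts are not shares.

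No pairing by replicate number was seen: same-numbered deviations correlated at -0.0539 for numbers 1 and 2 and 0.0106 for 3 and 4. Each strain had 2 samples per stage and single NT embryo tiles are imprecise, so these correlations cannot decide whether the numbers pair the samples. With the replicate block the quasi-binomial model called 0 tiles lower and 0 higher. Of 9365 shore tiles, 1937 had an unadjusted p under 0.05 in it, and the same count over all tested tiles is not given here. Sign flips of the 4 pairs, which cannot give an exact permutation p below 0.125, gave 0.125 under the block for the changes of all shores (-5.90 points), the 4 classes (-0.981, -2.81, -8.03 and -14.4), the slope (-13.5), methylated tiles by class (-30.8, -26.9, -32.0 and -29.1), the mid-rise distance (523 bp), methylated shores against distant tiles (-17.3) and downstream minus upstream (1.88).

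Depth limits what single tiles show: 29.7% of candidates were tested, and 5 of the 8 largest falls rest on under 20 calls in at least 1 NT embryo sample.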
